A study of Mus musculus with 24 samples.

Results

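The genes of mitochondrial and peroxisomal fatty acid oxidation were examined in the kidneys of hypertensive and normotensive mice. The set held 32 named genes of the carnitine shuttle, the β-oxidation enzymes of both organelles and their regulators, and a gene was measured where a probe set carried its symbol alone. Of the 32 genes, 29 were measured, out of 18782 genes measured in this way on the array: 15 of 17 mitochondrial genes, all 9 peroxisomal genes, 2 of 3 genes placed in both organelles or outside them, and all 3 regulators. Where a gene had several such probe sets, the one with the highest mean was used. Cpt1b and Acadvl were represented by probe sets shared with another gene (Gm44502 and Dvl2) and Acsl1 by none in the annotation used, so these 3 genes were not analysed here.

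Kidney tissue came from 12 week old mice of 4 groups with 6 mice each: BPH/2J females, BPN/3J females, BPH/2J males and BPN/3J males. BPH/2J is an inbred strain selected for high blood pressure and BPN/3J is its normotensive counterpart, so a strain difference here is a difference between 2 inbred genotypes and not the effect of 1 gene or of pressure alone. No mouse was treated, and blood pressure was not measured in these animals. RNA was hybridised to Affymetrix Mouse Gene arrays, 1 array per mouse, and values are log2 expression after robust multiarray analysis (RMA). A difference of 1 on this scale is a 2-fold change, levels of different genes cannot be set against each other, and the number of arrays limits the precision.

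Long-chain fatty acids enter mitochondria as carnitine esters and are then shortened in repeated rounds of dehydrogenation, hydration, a second dehydrogenation and thiolysis, with electrons passed through the electron transfer flavoprotein to the respiratory chain. Peroxisomes shorten very long and branched chains in a parallel pathway that starts with an acyl-CoA oxidase and yields hydrogen peroxide. Cells of the renal proximal tubule are rich in both organelles and rely on fatty acid oxidation for the energy of solute transport, and the nuclear receptor PPARα drives many of these genes in liver and kidney.

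Kidney markers were high throughout: the mean of 12 proximal tubule genes lay between 12.66 and 12.85 in all 24 arrays. Over all probe sets, r lay between 0.981 and 0.997 for 2 arrays of 1 group. Genes of neighbouring tissues were high in some arrays. The mean of 14 hepatocyte genes was at most 9.56 in BPH/2J females (median 6.55), and it reached 11.70 and 11.97 in BPN/3J females 2 and 5 (median 6.88). The mean of 9 adrenal cortex genes had medians of 9.37 in BPH/2J females and 8.97 in BPN/3J females, against 6.40 in BPH/2J males and 6.20 in BPN/3J males. Brown adipocyte genes differed between the female groups and are given beside the results they touch. In RNA from a mixed tissue, fewer cells of a type and less RNA per cell cannot be told apart.

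The trifunctional protein, which carries out the last 3 steps of the mitochondrial cycle on long chains, is made of an α subunit (Hadha) and a β subunit (Hadhb). The 2 genes lie head to head on chromosome 5, and 272 bases separate their start sites in RefSeq (GRCm38.p6). The stretch shown is the 250 bases before the start of Hadhb (plus strand, chr5:30155003-30155252), all of it between the 2 starts, because the differences of the 2 genes had the same sign in each comparison of strain or sex. Capitals mark the 2 GGGCGG boxes in it.
Hadhb and Hadha: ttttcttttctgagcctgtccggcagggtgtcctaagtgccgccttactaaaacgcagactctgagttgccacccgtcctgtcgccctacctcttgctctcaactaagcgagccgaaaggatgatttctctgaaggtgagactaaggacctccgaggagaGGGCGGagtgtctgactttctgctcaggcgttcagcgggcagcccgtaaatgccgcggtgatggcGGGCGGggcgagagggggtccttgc

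Acox2, the acyl-CoA oxidase of branched chains and bile acid precursors, had the largest strain difference of the 29 genes. RefSeq gives it 2 start sites, and the 250 bases before the upstream one (chr14:8259020-8259269, minus strand, GRCm38.p6) are shown with capitals on the letters closest to the direct repeat that PPARα and its partner RXR bind, 2 copies of AGGTCA with 1 base between them. That stretch began 57 bases before the start and departed from the repeat at 3 letters, as did the closest stretches of Acadm, Etfb and Hadh. How common such a match is over all promoters was not counted, and binding was not tested.
Acox2: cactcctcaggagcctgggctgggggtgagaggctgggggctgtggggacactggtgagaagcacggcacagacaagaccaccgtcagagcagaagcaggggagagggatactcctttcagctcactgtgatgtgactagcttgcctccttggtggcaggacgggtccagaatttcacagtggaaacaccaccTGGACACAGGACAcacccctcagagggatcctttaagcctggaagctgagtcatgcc

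Promoter windows of 300 bases (250 before to 50 after a start) were listed for 28 of the 32 genes, 31 windows in all, and both strands were searched. The exact repeat was in 0 of the 31 windows and in 0.0396% of all 32851 windows. Allowing up to 2 mismatches, it was in 3 of the 31 windows and in 3.86% of all windows. The 3 matches are shown with 8 bases on either side, because they are the closest to the PPARα element among these genes, with capitals on the match. In Acox2 (chr14:8258810-8258838, minus strand) it began 9 bases after the downstream start. In Slc25a20 (chr9:108662134-108662162, plus strand) it began 6 bases after the start. In Etfa (chr9:55512300-55512328, minus strand) it began 77 bases before the start and lay on the opposite strand.
Acox2: gctgtcccAGGACAGAGGTGAgtcaagag
Slc25a20: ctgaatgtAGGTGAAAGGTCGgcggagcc
Etfa: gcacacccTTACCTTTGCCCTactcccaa

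The GC box GGGCGG was in 20 of the 31 windows, against 35.7% of all windows, and the CCAAT box was in 14 of the 31, against 37.4%. TATAAA was in 0 of the 31 and in 13.6% of all windows, and a single AGGTCA was in 3 of the 31 and in 16.3%. These counts describe letters in the windows and were not set against the expression results.

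In females, genes of the carnitine shuttle and of mitochondrial β-oxidation were mostly higher in BPH/2J than in BPN/3J, by 1.09-fold to 1.26-fold, whereas the mitochondrial thiolase Acaa2 and the dienoyl-CoA reductase Decr1 were lower. The mean of 7 brown adipocyte genes was also higher in BPH/2J females, with no overlap between the strains, and with that mean as a covariate 0 of the 9 higher mitochondrial calls were left (limma) and the median mitochondrial difference was 0.05. Genes were called where limma gave an adjusted p below 0.05 (Benjamini-Hochberg, 28853 probe sets), and 9 of the 15 mitochondrial genes were higher and 2 lower. Of the 9 peroxisomal genes 2 were higher and 2 lower, and of the 3 regulators Pdk4 was higher. This made 12 of 29 genes higher and 4 lower, or 55.2%, where 14.5% of all probe sets passed (8.01% higher and 6.48% lower), and 21.1% of the probe sets at least as bright as the dimmest of these genes. The strains did not overlap for 10 of the 29 genes, and for 9.34% of all probe sets. The median difference was 0.13 over the mitochondrial genes and −0.00 over the peroxisomal genes, against 0.02 over all probe sets. At the Bonferroni threshold of the methods only Acaa2 passed in females, where 2.36% of all probe sets did.

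In males, 11 genes were higher and 3 lower in BPH/2J, or 48.3% of the 29 genes, where 15.2% of all probe sets passed (7.48% higher and 7.7% lower) and 22.9% of those at least as bright. The strains did not overlap for 12 of the 29 genes, and for 9.65% of all probe sets. The mitochondrial genes gave 5 higher and 1 lower of 15, the peroxisomal genes 3 higher and 2 lower of 9, and both Acad11 and Eci2, which are placed in both organelles, were higher. Median differences were 0.08 over the mitochondrial genes and 0.10 over the peroxisomal genes, against 0.00 over all probe sets. Cpt2, Eci1 and Acox2 also passed the Bonferroni threshold in males, which 2.56% of all probe sets did. In the 2 sexes, which share no arrays, 10 genes were called in the same direction: Slc25a20, Cpt2, Acadl, Hadhb, Eci1, Hsd17b4 and Pdk4 were higher in BPH/2J of both sexes, and Acaa2, Acox3 and Decr2 were lower. Of all probe sets 8.09% were called in the same direction in both sexes, and 12.6% of those at least as bright as the dimmest of these genes. Of these 10 genes, Acaa2 alone kept its female call with the brown adipocyte covariate. No gene was called in opposite directions.

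**Figure D1:**
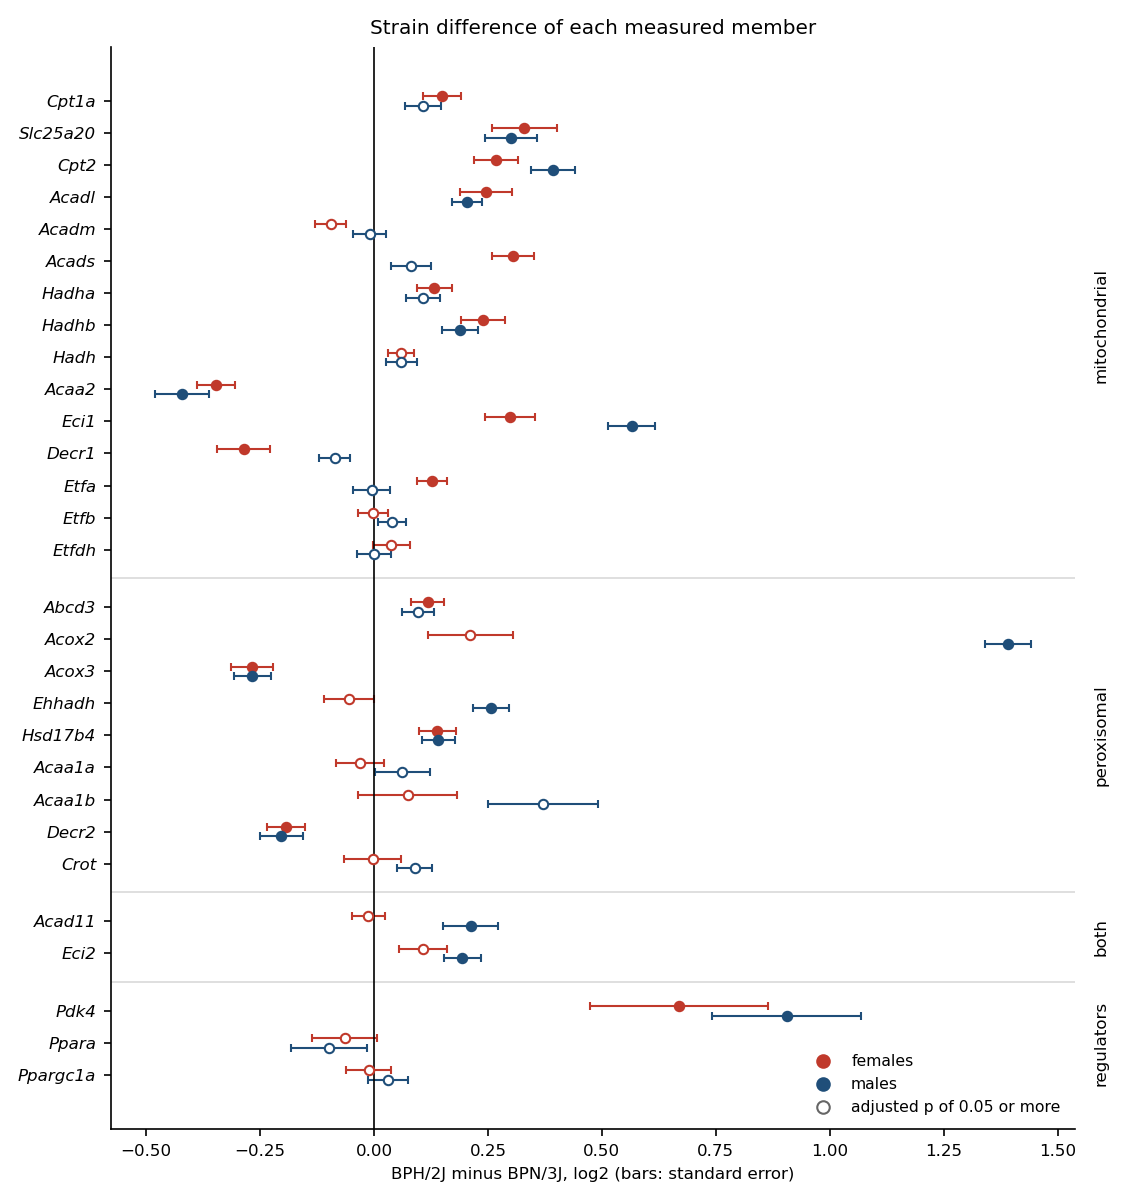
Strain difference (BPH/2J minus BPN/3J, log2, horizontal axis) of each of the 29 measured genes in females (red) and males (blue), with standard errors from limma, 6 arrays per group. Filled points had a Benjamini-Hochberg adjusted p under 0.05, 16 in females and 14 in males, and Acox2 in males lies farthest from 0 at 1.39.

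The carnitine shuttle carries acyl groups across both mitochondrial membranes. Slc25a20, the carnitine-acylcarnitine carrier of the inner membrane, had 9.73, 9.91 and 10.17 (lowest, median and highest array) in BPH/2J females, against 9.54, 9.60 and 9.69 in BPN/3J females. In BPH/2J males it had 9.75, 9.90 and 10.03, against 9.50, 9.58 and 9.78 in BPN/3J males. The female groups did not overlap, and in males the lowest BPH/2J array lay just under the highest BPN/3J array. The difference was 0.33 in females (standard error 0.0717, n = 6 per strain, limma adjusted p = 0.00691) and 0.30 in males (standard error 0.0567, adjusted p = 0.00231).

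Cpt2, the inner-membrane transferase that hands the acyl group back to coenzyme A, had 11.17, 11.27 and 11.44 in BPH/2J females, against 10.96, 11.03 and 11.11 in BPN/3J females. Its values were 11.40, 11.57 and 11.67 in BPH/2J males, against 11.10, 11.18 and 11.21 in BPN/3J males. No array of one strain reached into the range of the other in either sex. The strain difference was 0.27 in females (standard error 0.0487, limma adjusted p = 0.00203) and 0.39 in males (standard error 0.0481, adjusted p = 6.52e-05). Cpt1a, the outer-membrane transferase and main point of control of the pathway, differed less, by 0.15 in females (limma adjusted p = 0.0312) and by 0.11 in males, where it did not pass (adjusted p = 0.0898).

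The acyl-CoA dehydrogenases make the first double bond, and each prefers a chain length. Acads, the short-chain enzyme, had 10.99, 11.11 and 11.21 in BPH/2J females, against 10.71, 10.81 and 10.84 in BPN/3J females. It had 11.62, 11.68 and 11.76 in BPH/2J males, against 11.45, 11.64 and 11.68 in BPN/3J males. The female strains were apart and the male strains overlapped. Its strain difference was 0.31 in females (standard error 0.0465, limma adjusted p = 0.000523) and 0.08 in males (adjusted p = 0.275), and the 2 differences were not told apart by the interaction (adjusted p = 0.0688). Acadl, the long-chain enzyme, was higher in BPH/2J by 0.25 in females and 0.20 in males, with no overlap between strains in either sex. Acadm, the medium-chain enzyme, passed in no comparison of strain or sex; its female groups did not overlap, with a difference of −0.09 (limma adjusted p = 0.0863).

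Both subunits of the trifunctional protein were higher in BPH/2J in the female kidneys. Hadhb had 11.61, 11.74 and 11.83 in BPH/2J females, against 11.44, 11.46 and 11.63 in BPN/3J females. In males it had 11.28, 11.35 and 11.44 in BPH/2J, against 11.11, 11.16 and 11.22 in BPN/3J. The female ranges touched through 1 BPN/3J array, replicate 1, and the male groups did not overlap. Hadhb differed by 0.24 in females (standard error 0.0476, limma adjusted p = 0.00381) and by 0.19 in males (standard error 0.0391, adjusted p = 0.00464). A second Hadhb probe set gave 0.25 in females and 0.19 in males, and since the RefSeq gene table also lists a pseudogene copy of Hadhb, which copy these probe sets measured is uncertain.

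Hadha ran from 12.32 to 12.48 (median 12.41) in BPH/2J females, against 12.20 to 12.34 (median 12.28) in BPN/3J females. In males it ran from 12.03 to 12.12 (median 12.06) in BPH/2J, against 11.89 to 12.03 (median 11.97) in BPN/3J. The strains overlapped in both sexes. The difference was 0.13 in females (limma adjusted p = 0.0321) and 0.11 in males (adjusted p = 0.0711), so Hadha passed in females only. These strain differences were not told apart by the interaction (limma adjusted p = 0.904). Hadh, the 3-hydroxyacyl-CoA dehydrogenase of shorter chains, differed by 0.06 in each sex and passed in neither.

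Acaa2, the mitochondrial thiolase that releases acetyl-CoA, was lower in BPH/2J of both sexes. It had 12.05, 12.13 and 12.24 in BPH/2J females, against 12.42, 12.49 and 12.58 in BPN/3J females. In males the values were 11.21, 11.28 and 11.40 in BPH/2J, against 11.59, 11.65 and 11.93 in BPN/3J. Every BPH/2J array lay below every BPN/3J array of its sex. Acaa2 differed by −0.35 in females (standard error 0.0413, limma adjusted p = 6.82e-05) and by −0.42 in males (standard error 0.0595, adjusted p = 0.000227).

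Unsaturated chains need auxiliary enzymes, and the 2 mitochondrial ones moved in opposite directions. Eci1, the enoyl-CoA isomerase, had 10.59, 10.76 and 10.88 in BPH/2J females, against 10.36, 10.46 and 10.50 in BPN/3J females, and 10.78, 10.87 and 10.94 in BPH/2J males, against 10.24, 10.26 and 10.50 in BPN/3J males. Neither sex showed overlap between strains. Eci1 was higher in BPH/2J by 0.30 in females (standard error 0.0548, limma adjusted p = 0.00215) and by 0.57 in males (standard error 0.0508, adjusted p = 3.51e-06), which is 1.23-fold and 1.48-fold. Decr1, the 2,4-dienoyl-CoA reductase, had 10.41, 10.50 and 10.73 in BPH/2J females, against 10.71, 10.80 and 10.89 in BPN/3J females. In males it had 10.70, 10.72 and 10.77 in BPH/2J, against 10.75, 10.81 and 10.87 in BPN/3J. The strains overlapped slightly in both sexes, and Decr1 passed in females at −0.29 (standard error 0.0586, limma adjusted p = 0.00467) but not in males at −0.09 (adjusted p = 0.116).

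The electron transfer flavoprotein and its dehydrogenase take the electrons of the first step to ubiquinone. Etfa, the α subunit, was higher by 0.13 in BPH/2J females (limma adjusted p = 0.0207) and differed by −0.00 in males. Etfb, the β subunit, and Etfdh, the dehydrogenase, passed in neither sex, with differences between −0.00 and 0.04.

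**Figure D2:**
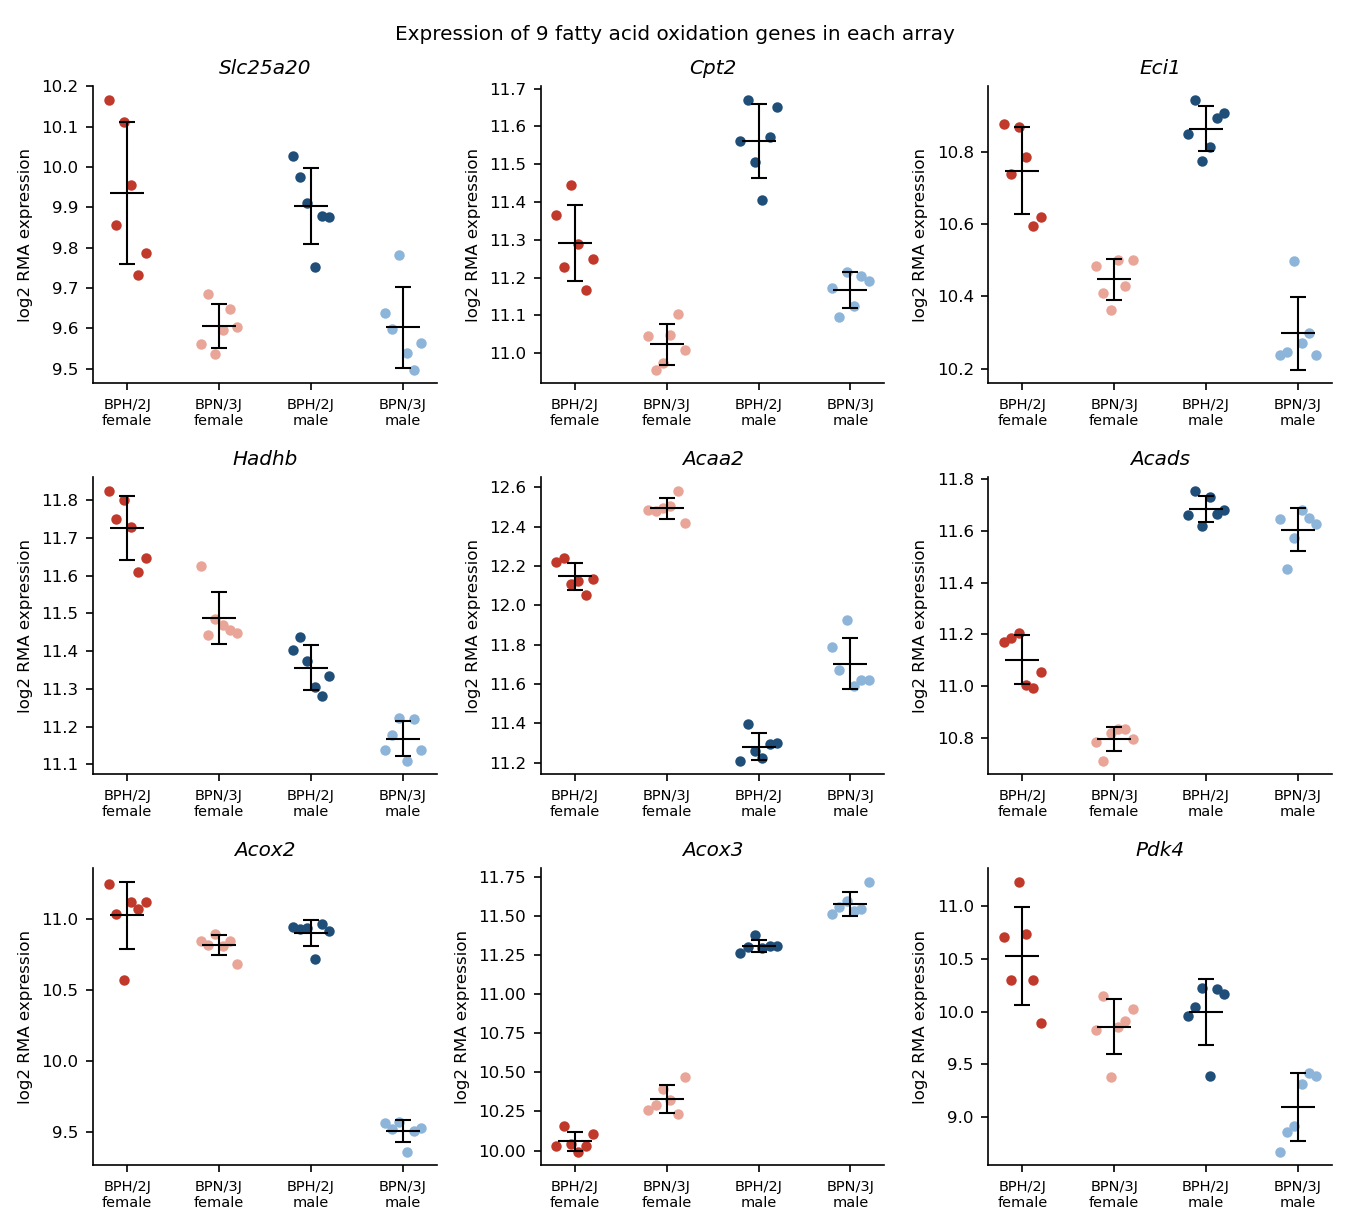
Log2 RMA expression of 9 genes in each array (points), with the group mean and SD (bars, n = 6), for BPH/2J females, BPN/3J females, BPH/2J males and BPN/3J males. Cpt2 and Eci1 lie higher and Acaa2 and Acox3 lower in every BPH/2J array than in every BPN/3J array of the same sex, and Acox2 is low in BPN/3J males alone.

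The female mitochondrial differences came with a difference in brown adipocyte genes. The mean of 7 such genes was 7.77 to 8.96 in BPH/2J females, against 7.18 to 7.72 in BPN/3J females, with no overlap, and 3 of the 7 were higher in BPH/2J. Ucp1, the uncoupling protein that defines brown fat, had 7.78, 9.58 and 10.51 in BPH/2J females, against 5.22, 5.84 and 6.35 in BPN/3J females. In males the mean was 7.33 to 8.13 in BPH/2J and 7.22 to 8.07 in BPN/3J, the ranges overlapped, and 0 of the 7 genes passed (limma, Benjamini-Hochberg), with a median difference of 0.01. Of 6 white adipocyte genes 2 were higher in BPH/2J females, and the mean of 12 proximal tubule genes was 12.66 to 12.70 in BPH/2J females, against 12.70 to 12.82 in BPN/3J females; the part of these in the results was not tested.

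When the brown adipocyte mean was added to the female fit as a covariate, 2 of the 29 genes passed, Acaa2 and Decr1, both lower in BPH/2J. The median mitochondrial difference was then 0.05 with a median standard error of 0.0706, against 0.13 and 0.0423 without the covariate. Slc25a20, for example, differed by 0.08 with the covariate (limma adjusted p = 0.709), and Pdk4 by 0.08 (adjusted p = 0.919). Other differences shrank less or not at all. Cpt2 differed by 0.17, Acads by 0.18, Cpt1a by 0.17 and Acox3 by −0.24, each uncalled with a larger standard error than without the covariate. In males the same covariate left all 14 calls in place. Leaving out BPH/2J females 1, 2 and 3, the arrays with the highest brown adipocyte means, gave 8 called genes in females, 5 higher and 3 lower. Slc25a20, Cpt2, Acads and Eci1 kept a higher call and Acaa2, Decr1 and Acox3 a lower call. The remaining 1 was Acox2, called higher in BPH/2J females here and not called with all arrays. The other female calls were lost. The female calls of Cpt1a, Hadha, Abcd3 and Hsd17b4, like that of Pdk4, were each lost when 1 of several single arrays was left out, with adjusted p of at most 0.0711, 0.0719, 0.1005 and 0.0878 in limma. The groups differ in the marker mean itself, so in females the strain and the brown adipocyte level cannot be told apart.

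**Figure D3:**
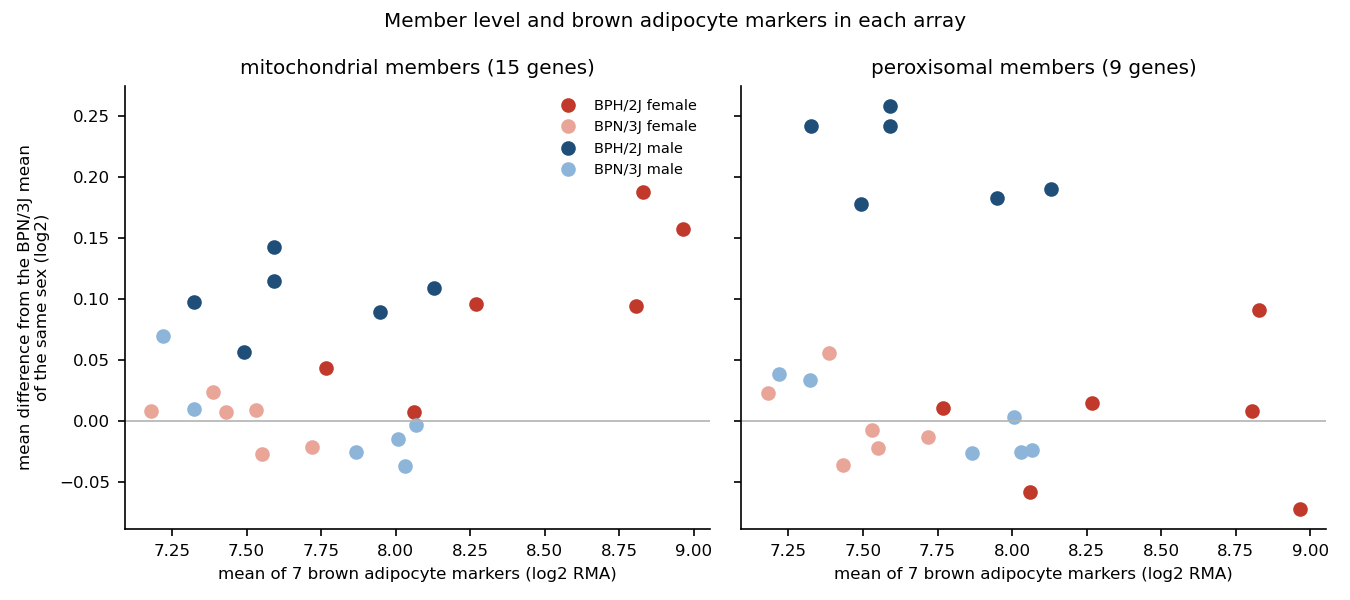
Mean difference from the BPN/3J mean of the same sex (log2, vertical axis) over the 15 mitochondrial (left) and 9 peroxisomal genes (right), against the mean log2 RMA expression of 7 brown adipocyte genes, 1 point per array. BPH/2J females (red) lie to the right of BPN/3J females (pink), and the peroxisomal means of BPH/2J males (dark blue) lie above those of BPN/3J males (light blue) at overlapping marker levels.

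Averaged per array over the 15 mitochondrial genes, the difference from the BPN/3J mean of the same sex was 0.01 to 0.19 in BPH/2J females (median 0.09), against −0.03 to 0.02 in BPN/3J females. It was 0.06 to 0.14 in BPH/2J males (median 0.10), against −0.04 to 0.07 in BPN/3J males. The ranges overlapped in both sexes. Over the 9 peroxisomal genes it was −0.07 to 0.09 in BPH/2J females (median 0.01), against −0.04 to 0.06 in BPN/3J females. In males the peroxisomal mean was 0.18 to 0.26 in BPH/2J (median 0.22), against −0.03 to 0.04 in BPN/3J. The peroxisomal means of the male strains were thus apart and those of the female strains were not, a mean to which Acox2 contributed most.

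Acox2 in the peroxisome had 10.72, 10.93 and 10.96 in BPH/2J males, against 9.36, 9.52 and 9.57 in BPN/3J males. In BPH/2J females it had 10.57, 11.10 and 11.25, against 10.68, 10.83 and 10.90 in BPN/3J females. BPN/3J males stood alone: all 6 of their arrays were below every array of the other 3 groups. Acox2 was 2.62-fold higher in BPH/2J males (difference 1.39, standard error 0.0505, limma adjusted p = 5.69e-10), and in females the difference was 0.21 (standard error 0.0932, adjusted p = 0.172). The female strains overlapped through 1 BPH/2J array, replicate 3 at 10.57. The next lowest BPH/2J female array, at 11.03, lay above every BPN/3J female array. The female result thus does not show that the strains are alike. When BPH/2J females 1, 2 and 3 were left out, Acox2 was called higher in BPH/2J females (limma). The strain difference in females minus that in males was −1.18 (standard error 0.108, adjusted p = 2.13e-07, limma on 24 arrays).

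Acox3, a second oxidase of branched chains, was lower in BPH/2J of both sexes. It had 9.99, 10.04 and 10.16 in BPH/2J females, against 10.23, 10.31 and 10.47 in BPN/3J females, and 11.27, 11.31 and 11.38 in BPH/2J males, against 11.51, 11.55 and 11.72 in BPN/3J males. The strains did not overlap in either sex. The difference was −0.27 in females (standard error 0.0469, limma adjusted p = 0.00153) and −0.27 in males (standard error 0.0415, adjusted p = 0.000519). A second, dim Acox3 probe set with a mean level of 5.90 did not pass, at −0.07 in females (limma adjusted p = 0.709) and −0.10 in males (adjusted p = 0.59).

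Ehhadh, the L-bifunctional enzyme that hydrates and dehydrogenates the chain, had 12.30, 12.41 and 12.43 in BPH/2J males, against 12.08, 12.12 and 12.23 in BPN/3J males. It had 11.82, 12.01 and 12.11 in BPH/2J females, against 11.97, 12.03 and 12.14 in BPN/3J females. The male strains were apart and the female strains overlapped. Ehhadh was higher by 0.26 in BPH/2J males (standard error 0.04, limma adjusted p = 0.000523) and differed by −0.06 in females (adjusted p = 0.595). Its interaction was −0.31 (standard error 0.0657, adjusted p = 0.00995), and with the brown adipocyte covariate it was −0.36 (adjusted p = 0.0502).

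Acox2 and Ehhadh were the 2 of 29 genes whose strain difference differed between the sexes by limma, where 1.76% of all probe sets passed (0.918% higher and 0.842% lower), and 3.19% of those at least as bright. Acox2 also passed the Bonferroni threshold, which 0.36% of all probe sets did. Both are peroxisomal and both interactions were negative. None of the 15 mitochondrial genes passed (limma), and Eci1 at −0.27 (adjusted p = 0.0698) and Acads at 0.22 came nearest.

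Decr2, the peroxisomal dienoyl-CoA reductase, had 10.92, 10.97 and 11.10 in BPH/2J females, against 11.06, 11.18 and 11.27 in BPN/3J females. In males it had 10.58, 10.66 and 10.80 in BPH/2J, against 10.80, 10.88 and 10.99 in BPN/3J. The ranges overlapped at their edges in both sexes. It was lower in BPH/2J, with differences of −0.19 in females (limma adjusted p = 0.00731) and −0.20 in males (adjusted p = 0.00943). Hsd17b4, the D-bifunctional enzyme of branched chains, was higher by 0.14 in each sex. Abcd3, a transporter of the peroxisomal membrane, was higher by 0.12 in females (limma adjusted p = 0.0461) and did not pass in males at 0.10. Eci2 and Acad11 passed in males alone, at 0.19 and 0.21, with 0.11 and −0.01 in females, and the Acad11 call was lost when any of 6 single arrays was left out (limma adjusted p at most 0.0623). Whether the sexes differed for these 2 genes was not shown (interaction adjusted p = 0.644 and 0.119, limma).

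The peroxisomal thiolases Acaa1a and Acaa1b are near-identical in sequence, so their probe sets may share signal. Acaa1b differed by 0.37 in males with a standard error of 0.121 (limma adjusted p = 0.0564), and Acaa1a by 0.06. Neither passed in a strain comparison, nor did Crot, which makes medium-chain acylcarnitines for export from peroxisomes.

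Among the regulators, Pdk4, the kinase that shuts off pyruvate dehydrogenase and so favours fatty acids as fuel, had 9.90, 10.50 and 11.24 in BPH/2J females, against 9.38, 9.89 and 10.15 in BPN/3J females. It had 9.39, 10.10 and 10.22 in BPH/2J males, against 8.67, 9.11 and 9.42 in BPN/3J males. The strains overlapped in females and, through 1 BPH/2J array (replicate 4), in males. Pdk4 was 1.59-fold higher in BPH/2J females (difference 0.67, standard error 0.196, limma adjusted p = 0.0361) and 1.87-fold higher in BPH/2J males (0.91, standard error 0.163, adjusted p = 0.00161). The female call was lost when any 1 of BPN/3J females 1, 3, 4 or 5 or of BPH/2J females 1, 3 or 4 was left out, with adjusted p between 0.0546 and 0.0772. Ppara and Ppargc1a, a coactivator of mitochondrial genes, passed in neither strain comparison, with differences between −0.10 and 0.03. A second Ppargc1a probe set gave 0.13 in females (limma adjusted p = 0.0432) and 0.13 in males (adjusted p = 0.104).

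Other genes of the pathways, from lists not used to choose the 29, were counted in the same fits, in which 14.5% of all probe sets passed in females and 15.2% in males, and 21.1% and 22.9% of those at least as bright as the dimmest of the 29. The part of the brown adipocyte genes in the female counts of these lists was not tested. PPARα targets outside the set gave 4 higher and 1 lower of 10 in females and 5 higher and 1 lower of 10 in males. Cyp4a14, a fatty acid ω-hydroxylase, was higher by 1.73 in BPH/2J males (standard error 0.211, limma adjusted p = 6.28e-05) and by 0.36 in females, and its interaction was −1.37 (adjusted p = 0.0013). Angptl4, an inhibitor of lipoprotein lipase, was higher by 1.06 in BPH/2J males, whereas Plin2, a coat protein of lipid droplets, was lower, at −1.10 in males and −0.43 in females. These targets did not share 1 direction.

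Other peroxisomal enzymes and transporters gave 2 higher and 3 lower of 22 in females and 6 higher and 1 lower of 22 in males. Nudt19, a peroxisomal coenzyme A hydrolase, was higher in BPH/2J by 0.75 in females and 0.52 in males, and Dao, D-amino acid oxidase, was lower, at −0.62 in females and −0.44 in males. Acot3, a peroxisomal acyl-CoA thioesterase, rose by 0.67 in males and Pxmp2, a channel of the peroxisomal membrane, by 0.63. Peroxins, which build the organelle, gave 2 higher and 0 lower of 14 in each sex (limma), among them Pex11a at 0.15 in females and 0.26 in males. The share of peroxins that passed was near the 14.5% and 15.2% of all probe sets.

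Against the same 14.5% of all probe sets in females and 15.2% in males, other mitochondrial oxidation and ketone body genes gave 3 higher and 1 lower of 15 in females and 3 higher and 2 lower of 15 in males. Bdh1, the ketone body enzyme 3-hydroxybutyrate dehydrogenase, was lower in BPH/2J, at −0.33 in females and −0.21 in males, and Acot2, a mitochondrial thioesterase, was higher by 0.27 and 0.32. Genes of fatty acid uptake, binding and activation gave 2 higher and 0 lower of 10 in females and 1 higher and 1 lower of 10 in males (limma). Slc27a1, a fatty acid transport protein, was higher by 0.19 and 0.21. Receptors, coactivators and kinases gave 0 higher and 2 lower of 15 in females and 0 higher and 3 lower of 15 in males (limma). Pparg, the adipose PPAR, was lower at −0.75 in BPH/2J males, whereas in females its difference was 0.28 and did not pass (limma adjusted p = 0.0616), and its interaction was 1.03 (adjusted p = 4.49e-05).

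Between the sexes, oxidation genes differed in both directions, and 14 genes did so in the same direction in both strains. Hadha, Hadhb, Acaa2, Decr2 and Ppargc1a were higher in females than in males of BPH/2J and of BPN/3J, and Cpt2, Acads, Hadh, Etfdh, Abcd3, Acox3, Hsd17b4, Crot and Eci2 were lower in both. Of all probe sets 19.6% were called in the same direction in both strains, and 39.9% of those at least as bright. In all, 5 genes were higher and 11 lower in BPH/2J females, where 28.9% of all probe sets passed in limma (15.6% higher and 13.4% lower), and 9 were higher and 11 lower in BPN/3J females, where 29.2% passed (14.4% higher and 14.8% lower). At the Bonferroni threshold 6 genes passed in each strain, where 4.72% of all probe sets did in BPH/2J and 4.74% in BPN/3J. Among probe sets at least as bright as these genes, 52% passed in BPH/2J and 50.9% in BPN/3J, against 55.2% and 69.0% of these 29 genes, so the share in BPH/2J was near that of all bright probe sets. The groups did not overlap for 12 genes in BPH/2J and 17 in BPN/3J, where 18.2% and 17.6% of all probe sets did not. For overlap and for the Bonferroni threshold, between sexes or strains, the share among bright probe sets alone was not taken.

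**Figure D4:**
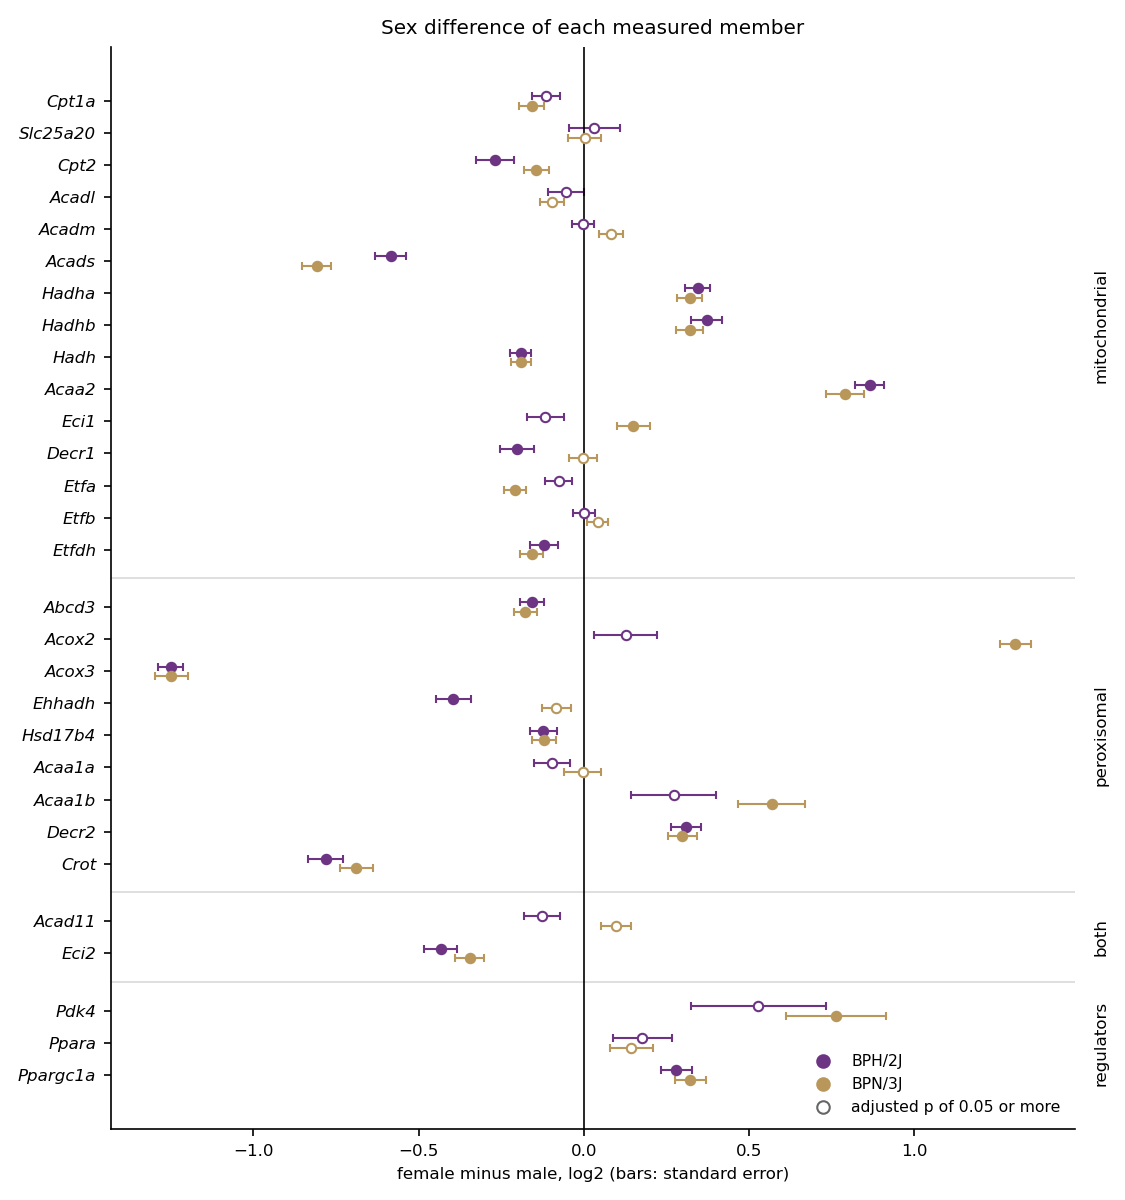
Sex difference (female minus male, log2, horizontal axis) of each of the 29 measured genes in BPH/2J (purple) and BPN/3J (tan), with standard errors from limma, 6 arrays per group. Filled points had a Benjamini-Hochberg adjusted p under 0.05. Acox3 lies near −1.25 in both strains, and Acox2 lies at 0.13 in BPH/2J and 1.31 in BPN/3J.

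The arrays of Acox3 given above were all lower in females than in males, with differences of −1.25 in BPH/2J (standard error 0.0373, limma adjusted p = 6.3e-11) and −1.25 in BPN/3J (standard error 0.0501, adjusted p = 1.25e-09), or 2.38-fold. The second Acox3 probe set gave −0.31 in BPH/2J (limma adjusted p = 0.0565), where it did not pass, and −0.34 in BPN/3J (adjusted p = 0.00184). Crot had 11.74, 11.85 and 12.09 in BPH/2J females, against 12.62, 12.65 and 12.72 in BPH/2J males. It had 11.78, 11.86 and 12.03 in BPN/3J females, against 12.50, 12.57 and 12.64 in BPN/3J males. The sexes were apart in both strains, with differences of −0.78 (standard error 0.0532, limma adjusted p = 1.97e-07) and −0.69 (standard error 0.0492, adjusted p = 3.03e-07). Acads was likewise lower in every female array, at −0.58 in BPH/2J (adjusted p = 9.81e-07) and −0.81 in BPN/3J (adjusted p = 1.98e-08).

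Acaa2 was higher in every female array than in every male array of its strain, by 0.87 in BPH/2J (standard error 0.0443, limma adjusted p = 1.25e-08) and 0.79 in BPN/3J (standard error 0.0575, adjusted p = 3.61e-07). Hadha and Hadhb were higher by 0.34 and 0.37 in BPH/2J females and by 0.32 in BPN/3J females for each, again with no overlap. For Acox2 the sexes differed by 0.13 in BPH/2J (adjusted p = 0.372), against 1.31 higher in BPN/3J females (standard error 0.0465, limma adjusted p = 3.58e-10). Pdk4 differed by 0.53 in BPH/2J (adjusted p = 0.0709) and was higher by 0.76 in BPN/3J females (adjusted p = 0.00188).

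Acadm, Etfb, Acaa1a and Ppara were called in none of the 4 comparisons of strain or sex by limma. In the sex comparison of BPH/2J the brown adipocyte covariate left 16 genes called, and in BPN/3J it left 19. The medians of the adrenal cortex mean were higher in females, as given above, and with the hepatocyte and adrenal cortex means as covariates 15 and 19 genes were called.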

How the data were processed

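The authors extracted RNA from snap-frozen kidneys, hybridised it to Affymetrix Mouse Gene arrays and normalised the arrays by RMA. The deposited values are log2 expression and were used as they stand. For RMA, the software version was not given in the sources used here. Gene symbols came from the array's probe annotation, in which 73.3% of probe sets carry 1 symbol.

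Strain, sex and number of each array came from its label. Each comparison was fitted on 12 arrays, and the interaction on 24, by limma 3.58.1 in R 4.3.3 with eBayes. P-values were adjusted by Benjamini-Hochberg across the whole array and called under 0.05, with the Bonferroni threshold of the methods as an alternative. The methods used a two-sided t-test, which was run as another alternative. Further alternatives were other normalisations, filters and probe sets, the replicate block, each array left out and marker means as covariates. Full values were given for genes past the Bonferroni threshold between strains, for the 3 largest called differences in each direction of each comparison and for called interactions. From each list of other genes up to 3 called genes were eligible, and those named were picked from these. The genes and lists were chosen with earlier results of these data known.

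On simulated data a 1.5-fold change, given to 100 probe sets, was recovered for 90% of them in the female and 83% in the male strain comparison, and for 77% in the interaction. False calls numbered 14, 5 and 11. Most differences called here were below 1.5-fold, so these shares do not give the recovery of such differences. Blood pressure and qPCR data were not analysed here. Promoters were taken from RefSeq (GRCm38.p6). Plots were made in Python 3.11.15 with matplotlib 3.10.9.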

Additional observations from a re-analysis of the deposited data

Results flagged for a closer look

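In 9 of 116 tests of 1 gene in 1 group, 1 array stood apart from the other 5, and chance alone gives about 1 in 20. Acox2 was low in BPH/2J female 3 at 10.57 (nearest array 11.03), in BPH/2J male 4 at 10.72 (nearest 10.91) and in BPN/3J male 4 at 9.36 (nearest 9.50). BPH/2J male 4 was also the lowest of its group for Cpt1a at 12.33 and for Pdk4 at 9.39. In BPH/2J male 3, Acaa1b was low at 8.92 and Acox3 was high at 11.38. Hadhb was high in BPN/3J female 1 at 11.63, and Eci1 in BPN/3J male 3 at 10.50.

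The strain difference of Acox2 in females minus that in males was −1.18 (limma interaction, adjusted p = 2.13e-07), and for Ehhadh it was −0.31 (adjusted p = 0.00995), so the 2 strain effects differed between the sexes.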

How the results depend on the processing

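Over 68 called results and all alternatives, 1611 of 1858 values kept direction and call, 247 lost the call and 0 changed sign. At the Bonferroni threshold the strain calls numbered 1 in females and 3 in males. The sex calls at that threshold numbered 6 in BPH/2J and 6 in BPN/3J, and the interaction calls 1. At the Benjamini-Hochberg threshold with a 1.5-fold change required in addition, these counts were 1, 2, 3, 6 and 1. The brown adipocyte covariate gave 2 for strain in females and 1 for the interaction. Leaving out BPH/2J females 1, 2 and 3, which was added once the data had been seen, gave 8 for strain in females and 4 for the interaction, which was also 4 with eBayes trend and robust settings and with dim probe sets left out. The replicate number as a block gave 10 for strain in females, where 16 were called without it. Same-numbered arrays were counted as deviating together where r was over 0.1. They did so in 4 of 6 pairs of the female strains (r from −0.57 to 0.34) and 0 of 6 of the male strains (r from −0.27 to 0.02). Between the sexes they did so in 3 of 6 pairs in each strain. In the female strains 4 of 6 arrays also correlated best with their own number, against 0 of 6 in the male strains. The main fits did not take the numbers as pairs, and what same-numbered arrays share was not tested. The block moved no other count by over 1.5 times. With each array left out in turn, the counts ran from 11 to 16, 13 to 15, 14 to 17, 19 to 20 and 2 to 4; the female strain count was 11 without BPN/3J female 3 or BPH/2J female 1, and the interaction count 4 without BPH/2J female 1. The female strain count was also 11 without BPN/3J females 2 and 5, where hepatocyte genes were high. With the hepatocyte and adrenal cortex means as covariates, 9 mitochondrial genes were called between the female strains, 7 of them higher. Without covariates 11 were called, 9 of them higher. Of the peroxisomal genes 2 were called with these covariates, 0 of them higher, against 4 and 2 without. After quantile normalisation the sex comparison of BPN/3J gave 11 higher and 9 lower, where 9 and 11 were called without it. Of single genes, the strain calls in females lost when 1 array was left out were those of Cpt1a (BPH/2J 1, 3, 4 or 6, BPN/3J 1, 2 or 3), Hadha (BPH/2J 1, 2, 3 or 4, BPN/3J 1, 3, 5 or 6), Pdk4 (BPH/2J 1, 3 or 4, BPN/3J 1, 3, 4 or 5), Abcd3 (BPH/2J other than 5, BPN/3J other than 1), Hsd17b4 (BPH/2J other than 4 and 5, BPN/3J other than 1) and Etfa (BPH/2J 2, adjusted p = 0.0517), and in males that of Acad11 (BPH/2J 2, 5 or 6, BPN/3J 2, 4 or 5). Between the sexes, Etfdh in BPH/2J lost its call without 10 of the 12 arrays in turn (all but females 1 and 3), Hsd17b4 in BPH/2J without 9 (all but females 1 and 2 and male 1) and Eci1 in BPN/3J without 9 (all but females 2 and 3 and male 3), with adjusted p between 0.0524 and 0.0873.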

Other observations

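Genes of fatty acid oxidation and uptake outside the 29 also differed between the sexes in both strains. Hacl1, the peroxisomal lyase of α-oxidation, was higher by 1.35 in BPH/2J females and 1.77 in BPN/3J females than in males of the same strain (limma), and Amacr, the racemase that prepares branched chains for β-oxidation, was lower, at −1.30 and −1.29. Cd36, a fatty acid translocase of the plasma membrane, was lower, at −0.94 and −1.13, and Acat1, the mitochondrial acetoacetyl-CoA thiolase, likewise, at −0.56 and −0.63. The 10 genes of fatty acid uptake, binding and activation, Cd36 among them, gave 5 higher and 2 lower in BPH/2J females. In BPN/3J females they gave 3 higher and 2 lower. In BPH/2J 28.9% of all probe sets passed between the sexes and in BPN/3J 29.2%, and 52% and 50.9% of those at least as bright as the dimmest of the 29 genes. Of 22 other peroxisomal enzymes and transporters, 4 were higher and 11 lower in BPH/2J females, and 8 were higher and 10 lower in BPN/3J females. Of 14 peroxins, 0 were higher and 6 lower in BPH/2J females (limma), and 1 was higher and 6 lower in BPN/3J females.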
